A study of Mus musculus with 16 samples.

Results

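The comparison asked, gene by gene, whether the change that followed bacterial pneumonia in lavage macrophages was different in mice lacking Toll-like receptor 3 (TLR3-KO) and in wild-type (WT) mice. It is the difference of 2 responses, injured minus control in TLR3-KO less injured minus control in WT, on the log2 scale, and is called the interaction here. A positive value means that the response was more positive, or less negative, in TLR3-KO. All 16 of the 16 libraries of the series entered it, 4 in each of 4 groups, and it was read for the 11988 tested genes that lie outside the X and Y chromosomes. Macrophages had been recovered by bronchoalveolar lavage, a wash of the airways, and their RNA was sequenced. The WT control and TLR3-KO control groups carry the treatment label none, while the protocol speaks of saline given through the hypopharynx. The WT injured and TLR3-KO injured groups were sampled following pneumonia, and the protocol gives 500 CFU of Klebsiella pneumoniae, strain 43816, serotype 2, in 30 µl by the same route. The knockout allele, the strain and age of the mice and the time after infection are not given in the sources used here. Nor is it stated that each library came from a mouse of its own, so p-values cover only the spread between libraries, which may be technical.

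TLR3 sits in endosomes and recognises double-stranded RNA. It signals through the adaptor TRIF (Ticam1) to the interferon regulatory factor IRF3 and to NF-kB, which switch on type I interferon and inflammatory genes. Klebsiella pneumoniae is a Gram-negative bacterium whose lipopolysaccharide is sensed by TLR4, a receptor that also uses TRIF. Alveolar macrophages live in the airspace, renew themselves locally by cell division and clear surfactant and bacteria.

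Libraries held between 29667102 and 59640251 counts. All 14 macrophage markers found in the table were counted in every library, with summed levels of 49863 to 63428 CPM (the count as a share of the library total, scaled alike in all libraries), led by Lyz2. Tlr3 itself had 0.687, 0.274, 0.717 and 0.437 CPM in the TLR3-KO controls and 0.353, 0.677, 0.472 and 0.464 CPM in TLR3-KO injured libraries, below every WT library (2.18 to 4.53 CPM), and its interaction was -0.07 ± 0.46 (log2 ± SE). The series title speaks of male mice, but Xist, an RNA made from the silenced X chromosome of females, reached 42.3, 31.6 and 20.3 CPM in libraries 1, 2 and 3 of the TLR3-KO controls and at most 0.230 CPM elsewhere. Summed levels of 4 Y-linked genes were 0.758, 1.16 and 23.2 CPM in those 3 libraries and 163 to 235 CPM elsewhere. Sex of the RNA and the state TLR3-KO control can therefore be told apart only through TLR3-KO control 4, and values with that library as the only TLR3-KO control are given for the results described in most detail and wherever a list median or a gene named by the rule turned sign or moved by over 1.5 times. Controls with the same number also resembled each other across genotypes: controls 1 and 2 had higher inflammatory gene scores than controls 3 and 4 in both genotypes. With TLR3-KO control 4 as the only TLR3-KO control, that library stands against all WT controls. Sex of the RNA and control number then change together, and a shift in that fit cannot be assigned to either.

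No gene passed the test of the interaction (edgeR quasi-likelihood, adjusted p under 0.05; 0 of 11988 genes, 0.0%), and the lowest adjusted p was 0.237. At an unadjusted p under 0.05 there were 2114 genes (17.6%), of which 1021 (8.52%) were positive and 1093 (9.12%) negative, where an even spread of p-values over all genes would give 599. At any p, 47.1% of all genes were positive and 52.9% negative, the shares to set beside the list counts below. When the number shared by control libraries was added to the model as a block, 342 genes passed (2.85%), 189 positive (1.58%) and 153 negative (1.28%). That count was 0 without WT control 1, 2 or 3, WT injured 2, TLR3-KO control 1, 2 or 3, or TLR3-KO injured 1, 2 or 3, each left out in turn, and 2750 without WT injured 4. Leaving out either control of a number is nearly the same check, since its unpaired partner then adds nothing to the blocked contrast. DESeq2 called 91 genes (0.759%), and limma voom called 0 with equal library weights and 4881 with libraries weighted by their estimated quality. Each gene below is given with its interaction in edgeR's unblocked model. Its adjusted p there was 0.237 or higher in every case, so none of these interactions passed the test.

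**Figure D1:**
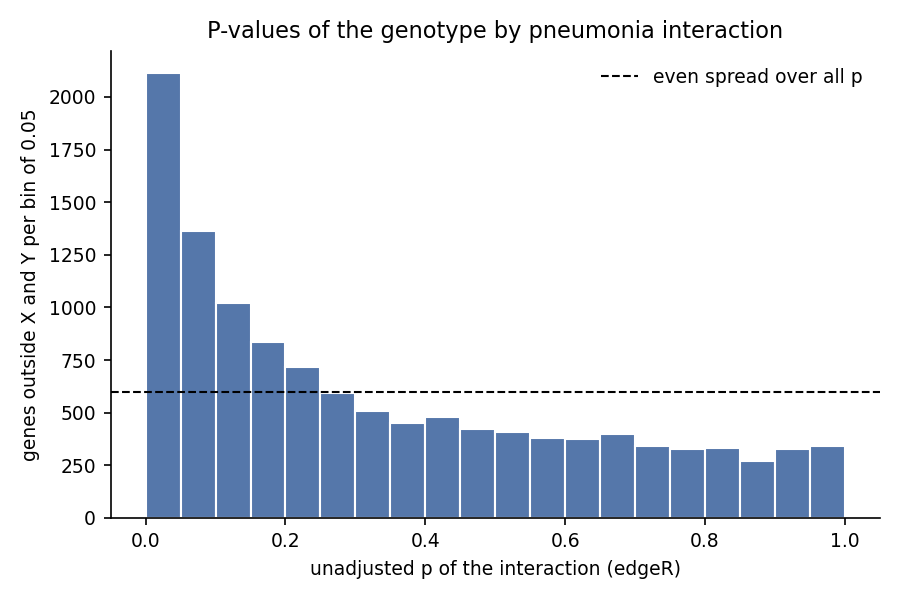
Histogram of the unadjusted interaction p-values (x axis, bins of 0.05) of the 11988 genes outside X and Y (y axis, genes per bin), with a dashed line where an even spread would lie. The lowest bin holds 2114 genes and the next 1362.

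Across genes the responses themselves were small. The median absolute log2 response was 0.173 in WT and 0.256 in TLR3-KO, and the median absolute interaction of 0.334 stood beside a median SE of 0.273. The direction of the response was the same in WT and TLR3-KO for 5325 genes (44.4%), with a Pearson correlation of 0.20 and a Spearman correlation of -0.083 across genes, which share libraries and are not independent. At an adjusted p under 0.05 in edgeR, 131 genes (1.09%) changed in TLR3-KO after pneumonia and 0 in WT, where 1288 (10.7%) had an unadjusted p under 0.05. Only the interaction tests that difference, and it passed for no gene. The genotypes differed for 79 genes (0.659%) in controls and 74 genes (0.617%) in injured libraries. These single contrasts are used below to show which groups make an interaction. They are parts of the interaction, so for genes named for a low interaction p a low p in them is not separate evidence. The TLR3-KO response and the difference between control genotypes share the TLR3-KO controls, so they are not independent of each other. Both set TLR3-KO controls 1, 2 and 3, with Xist and little Y-linked RNA, against libraries of male type. Sex of the RNA cannot be told apart from pneumonia or genotype in them, except through TLR3-KO control 4. This holds for every rise or fall in TLR3-KO and every control difference given below.

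The cell division genes were the list with the most members at a low p. Of 41 measured, 39 had a positive interaction (47.1% of all genes did), 25 had a positive interaction with an unadjusted p under 0.05 (8.52% of all genes) and 0 a negative one. The median interaction was 0.74, against -0.03 over all genes tested. It was made of a median of -0.28 in the WT response and 0.50 in the TLR3-KO response. With control numbers blocked, 3 of the 41 were called, against 1.58% of all genes: Bub1, Kif20a and Tpx2. In bulk RNA, fewer cells in division and less of these RNAs per cell cannot be told apart.

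Kif20a (chromosome 18, 34624613 to 34633277 in GRCm38) encodes a kinesin that works at the end of division. It had 24.0, 26.3, 30.6 and 22.3 CPM in WT controls and 16.1, 13.5, 16 and 26.7 CPM in WT injured libraries. In TLR3-KO it was counted at 17.5, 26.5, 23.1 and 32.9 CPM in controls and at 35.4, 46.3, 40.04 and 33.3 CPM after pneumonia. On this scale every TLR3-KO injured library lay above every other library of the series, by a narrow margin over TLR3-KO control 4. On CPM scaled by TMM factors, which correct for library composition, WT control 3 (factor 0.958) lay above TLR3-KO injured 4 (1.05). WT injured 4 stood apart from the other 3 of its group. The interaction was 1.20 ± 0.29, and the difference between genotypes after pneumonia passed the test (1.06 ± 0.21, adjusted p = 0.035 in edgeR).

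Bub1 (chromosome 2, 127801122 to 127831865), a checkpoint kinase of the mitotic spindle, had 19.4, 20.8, 17.0 and 13.5 CPM in WT controls and 13.1, 12.4, 14.6 and 17.1 CPM in WT injured libraries. The TLR3-KO values were 9.29, 17.8, 11.3 and 17.0 CPM in controls and 19.97, 29.5, 27.4 and 20.2 CPM in injured libraries, with no overlap. Its interaction was 1.18 ± 0.30. Ccnb1 (chromosome 13, 100778650 to 100786570), the cyclin that drives entry into mitosis, had an interaction of 1.06 ± 0.29, with 33.0 to 49.6 CPM in the TLR3-KO controls and 55.7 to 67.1 CPM in TLR3-KO injured libraries. Top2a, which untangles DNA, had the highest value of the list (1.31 ± 0.43), followed by Plk1, a mitotic kinase (1.28 ± 0.36). Mcm7, part of the replication helicase, had 0.32 ± 0.28, and the 2 negative members were Cenpa (-0.24 ± 0.32), a centromere histone, and Pcna (-0.21 ± 0.17), the polymerase clamp.

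The score of the list, the mean over members of log2 CPM centred per gene, was 0.30, 0.58, 0.50 and 0.22 in TLR3-KO injured libraries. It was -0.09, -0.69, -0.55 and 0.11 in WT injured libraries, 0.05, 0.18, 0.01 and -0.35 in WT controls, and -0.17, 0.10, -0.27 and 0.08 in TLR3-KO controls. The TLR3-KO injured libraries were all higher than the other 12. The median interaction was 0.60 with TLR3-KO control 4 as the only TLR3-KO control, 0.87 with controls 1 and 2 only and 0.67 with controls 3 and 4 only, and 0.63 to 0.88 with each library left out. Dtl, which targets replication factors for degradation and is not on the list, had an interaction of 1.39 ± 0.32 and rose in TLR3-KO after pneumonia (1.31 ± 0.23, adjusted p = 0.0251 in edgeR). Stil, needed to build centrioles, had 1.17 ± 0.29, and Nedd1, which anchors the microtubule nucleating complex, 0.49 ± 0.12. These 3 genes were named for their own p and no count over such genes was made.

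Promoters of many late cell cycle genes carry CCAAT boxes, bound by the factor NF-Y, and cell cycle homology region (CHR) elements. The 250 bases before the start of the 3 list members with the lowest interaction p among those whose promoter could be shown are printed from RefSeq (GRCm38.p6), 5′ to 3′ on the gene's strand, with CCAAT or its reverse complement in capitals. They lie at chr2:127831860-127832109 (minus strand), chr13:100786487-100786736 (minus strand) and chr3:135212313-135212562 (plus strand).
Bub1: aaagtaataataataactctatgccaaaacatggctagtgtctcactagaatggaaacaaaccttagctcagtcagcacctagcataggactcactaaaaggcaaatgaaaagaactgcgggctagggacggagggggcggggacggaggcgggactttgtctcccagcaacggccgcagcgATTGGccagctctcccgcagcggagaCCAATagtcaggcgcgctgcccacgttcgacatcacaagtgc
Ccnb1: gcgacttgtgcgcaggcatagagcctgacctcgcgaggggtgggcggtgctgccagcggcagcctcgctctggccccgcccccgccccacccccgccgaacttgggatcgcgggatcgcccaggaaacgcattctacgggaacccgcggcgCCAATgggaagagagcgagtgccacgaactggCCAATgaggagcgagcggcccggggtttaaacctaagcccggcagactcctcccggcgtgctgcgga
Cenpe: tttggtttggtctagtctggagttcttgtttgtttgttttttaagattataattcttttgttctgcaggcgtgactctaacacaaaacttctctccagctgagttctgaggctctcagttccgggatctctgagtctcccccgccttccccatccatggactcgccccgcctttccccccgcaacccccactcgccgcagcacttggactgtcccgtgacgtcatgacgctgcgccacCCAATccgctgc
Bub1 and Ccnb1 each hold the box 2 times and Cenpe, a kinesin of the centromere (interaction 0.93 ± 0.25), holds it 1 time. Promoters were found for 34 of the 41 members. CCAAT, searched on both strands, was in 27 of the 34 (79.4%) and in 34.3% of all 25748 promoters of the same length. The CHR letters TTTGAA were in 9 of the 34 (26.5%) and in 15.9% of all, and the E2F letters GGCGGGAA in 1 (2.94%) and in 1.86%. None of the 3 motifs contains another, a match is a description of the sequence, and no factor was measured here.

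**Figure D2:**
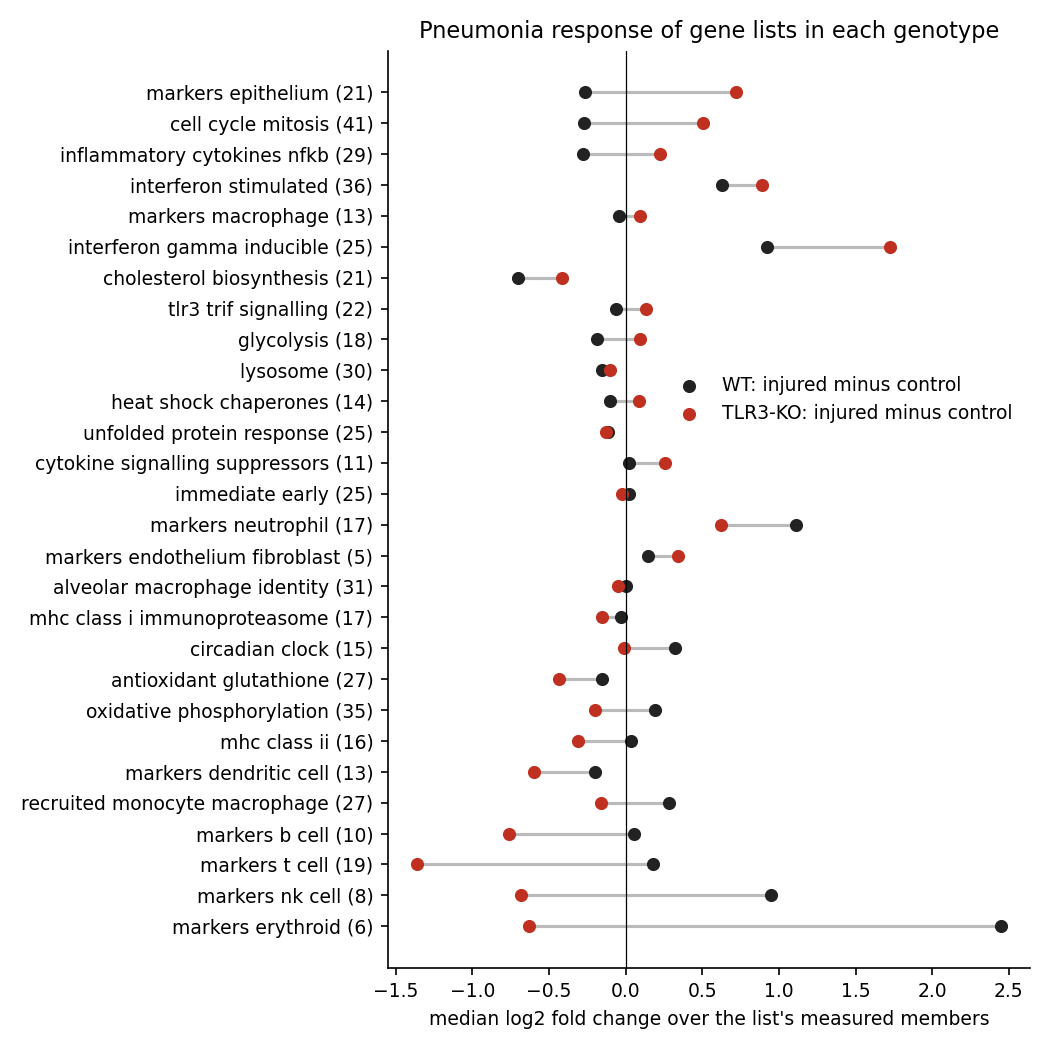
Median log2 fold change after pneumonia (x axis) of each gene list (y axis, measured members in parentheses, ordered by median interaction) in WT (black) and TLR3-KO (red). Cell cycle genes had medians of -0.28 and 0.50, lung epithelium markers -0.26 and 0.72, and erythroid markers 2.45 and -0.63.

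Markers of lung epithelium, cells that a macrophage preparation can carry over, had the highest median interaction of the lists, 1.49 over 21 members. Of these, 14 were positive, 12 of them with an unadjusted p under 0.05 (8.52% of all genes), and 1 was negative at that p (9.12% of all genes). Cldn18, Sftpb and Cdh1 were called with control numbers blocked, 3 of 21 against 1.58% of all genes. Cdh1 was counted at 25.9 to 127 CPM across libraries and Sftpb at 0.251 to 3.07 CPM, and which cells the Cdh1 RNA came from was not tested. Positive members included genes of surfactant proteins and of the alveolar lining, such as Sftpd 2.42 ± 0.61, Sftpa1 1.64 ± 0.46, Ager 1.63 ± 0.58, Aqp5 1.77 ± 0.62 and Sftpc 1.56 ± 0.62. The 7 negative members included genes of airway secretory cells: Scgb1a1 -1.75 ± 0.71, Scgb3a2 -1.14 ± 0.95, Bpifa1 -0.67 ± 0.80 and Cyp2f2 -0.65 ± 0.78. Foxj1, a ciliated cell factor, had -0.31 ± 1.07. Epcam, a marker of epithelia in general, had -0.84 ± 0.51, and Hopx, a factor of alveolar lining cells, had -0.08 ± 0.29.

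Cldn18 (chromosome 9, 99689461 to 99717267), a tight junction claudin of alveolar cells, had 1.96, 1.44, 1.11 and 0.877 CPM in WT controls and lower, at 0.466, 0.718, 0.731 and 0.756 CPM, in all WT injured libraries. TLR3-KO controls held 0.735, 1.81, 1.92 and 1.61 CPM and TLR3-KO injured libraries more, at 4.54, 5.58, 7.11 and 2.04 CPM. Its interaction was 2.75 ± 0.54, and genotypes differed after pneumonia (2.81 ± 0.40, adjusted p = 0.00403 in edgeR). With TLR3-KO control 4 as the only TLR3-KO control the value was 2.77.

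Sftpb (chromosome 6, 72304610 to 72314371), a surfactant protein, had 1.01, 0.411, 0.443 and 0.713 CPM in WT controls and 0.310, 0.331, 0.251 and 0.397 CPM in WT injured libraries. In TLR3-KO the controls held 0.569, 0.484, 0.527 and 1.45 CPM and the injured libraries 2.42, 2.49, 3.07 and 1.25 CPM, so that only TLR3-KO control 4 overlapped the injured range. Its interaction was 2.68 ± 0.57, or 1.83 with that library as the only TLR3-KO control. Gprc5a, a receptor of lung epithelium that is not on the list, had 2.38 ± 0.54, and Cyr61, a matrix protein gene, 2.04 ± 0.47. TLR3-KO exceeded WT after pneumonia for both (2.30 ± 0.40, adjusted p = 0.0176, and 2.27 ± 0.34, adjusted p = 0.00556, in edgeR).

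Summed epithelial marker levels overlapped between groups: 131 to 262 CPM in WT controls, 152 to 248 in WT injured, 233 to 248 in TLR3-KO controls and 241 to 331 in TLR3-KO injured libraries. Most of that sum came from Cdh1, Abca3, Epcam and Bpifa1, of which Epcam and Bpifa1 had negative interactions. The median interaction was 1.11 with TLR3-KO control 4 as the only TLR3-KO control, 2.16 with controls 1 and 2 only and 0.54 with controls 3 and 4 only. The part of epithelial RNA in the other results was not tested.

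**Figure D3:**
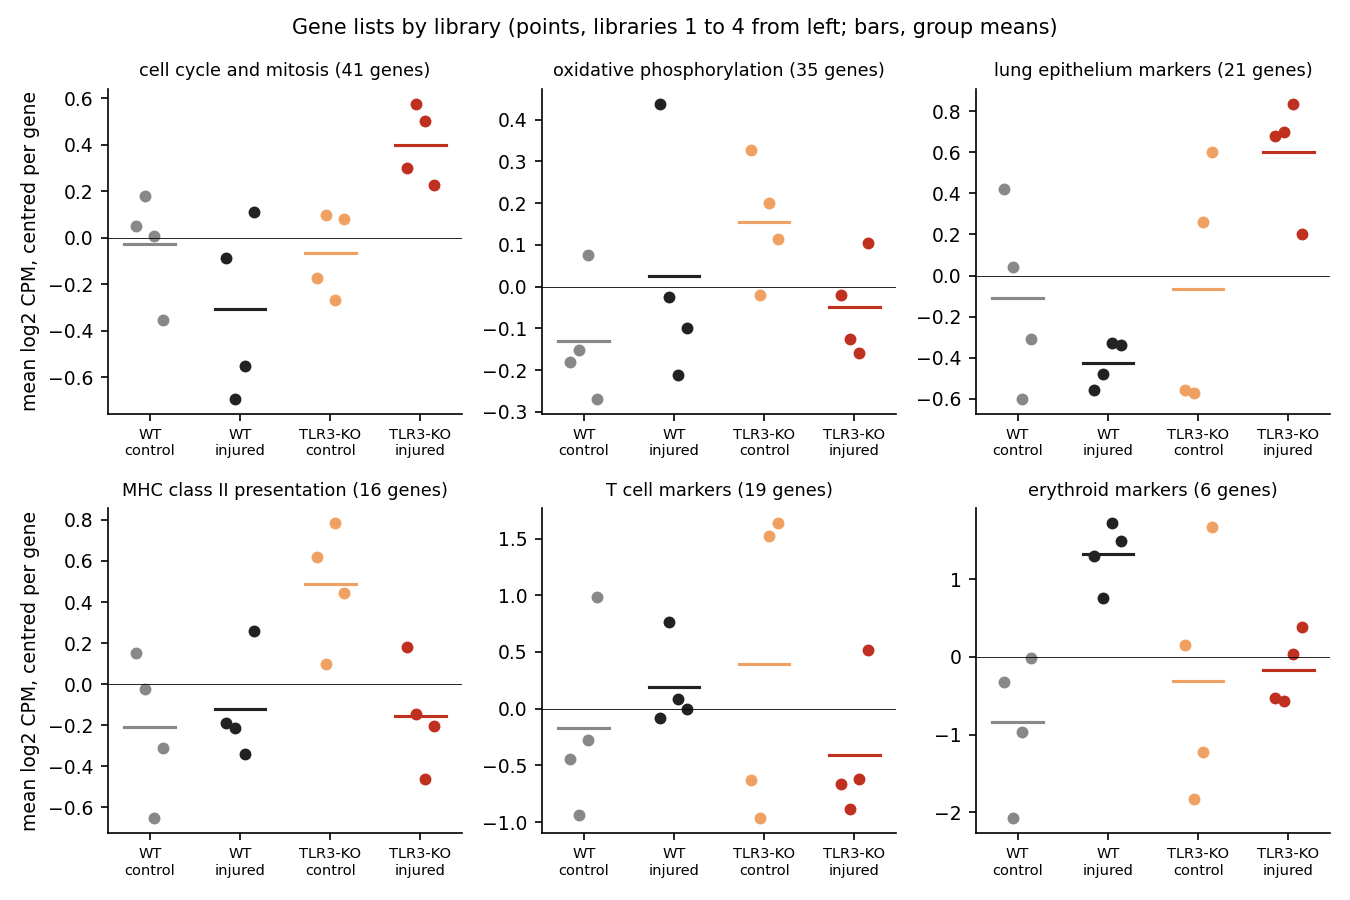
Scores of 6 gene lists by library (y axis, mean over members of log2 CPM centred per gene; x axis, the 4 groups; points, libraries 1 to 4 from left; bars, group means). TLR3-KO injured libraries are highest for cell cycle genes (0.22 to 0.58), WT injured library 1 stands above its group for oxidative phosphorylation (0.44), and T cell markers are high in TLR3-KO controls 3 and 4 (1.52 and 1.64).

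Nuclear genes of oxidative phosphorylation, which encode subunits of the respiratory chain, lay on the negative side. Of 35 measured, 30 had a negative interaction (52.9% of all genes did), 15 of them with an unadjusted p under 0.05 (9.12% of all genes), and none was positive at that p. The median was -0.42, made of 0.19 in WT and -0.20 in TLR3-KO. The 3 lowest were Cox7c (-0.94 ± 0.32), Uqcrh (-0.86 ± 0.29) and Cox6c (-0.84 ± 0.30), subunits of complexes IV and III. Cox7c had 37.3, 37.4, 50.0 and 40.9 CPM in WT controls and 101, 61.4, 52.0 and 40.6 CPM in WT injured libraries, where library 1 stood apart. In TLR3-KO the values were 60.6, 44.3, 60.5 and 69.9 CPM in controls and 43.6, 40.3, 39.7 and 58.7 CPM after pneumonia. Without WT injured 1 the median of the list was -0.18. The 5 positive members were Sdha (0.34 ± 0.22), Ndufs1 (0.32 ± 0.18), Atp5a1 (0.22 ± 0.17), Atp5b (0.07 ± 0.15) and Uqcrc2 (0.02 ± 0.16).

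For 4 of the 12 named genes with a negative interaction, Gm11545, Adam33, Tspan4 and Tmem149, the genotypes differed in the controls. Over all genes tested, 79 of 11988 (0.659%) did. The 12 were picked on a contrast that contains this difference, so a higher share among them is partly built in. Gm11545 (chromosome 11, 94756976 to 94757763), a predicted gene, had 3.64, 4.45, 3.67 and 3.65 CPM in WT controls, against 8.37, 10.9, 12.6 and 7.01 CPM in the TLR3-KO controls. After pneumonia the genotypes overlapped, at 4.40, 5.69, 3.93 and 4.71 CPM in WT and 5.06, 5.20, 3.88 and 3.64 CPM in TLR3-KO. The interaction was -1.36 ± 0.29, or -0.77 with TLR3-KO control 4 as the only TLR3-KO control. The gene was higher in TLR3-KO than in WT controls (1.26 ± 0.21, adjusted p = 0.0123 in edgeR) and fell in TLR3-KO after pneumonia (-1.19 ± 0.20, adjusted p = 0.0251).

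Tspan4 (chromosome 7, 141475240 to 141493427), a tetraspanin membrane protein, had responses of opposite sign. It had 8.17, 10.2, 12.9 and 13.3 CPM in WT controls and 16.1, 19.4, 15.4 and 14.9 CPM in WT injured libraries, all higher. TLR3-KO controls held 17.7, 18.3, 28.9 and 22.1 CPM and TLR3-KO injured libraries 15.7, 14.1, 15.1 and 17.3 CPM, all lower. The interaction was -1.01 ± 0.22, and only the difference between the control genotypes passed the test (0.90 ± 0.16, adjusted p = 0.0212 in edgeR). Adam33, a membrane metalloprotease, had -1.66 ± 0.36 and was also higher in TLR3-KO controls than in WT controls (1.20 ± 0.25, adjusted p = 0.0458). So was Tmem149, with an interaction of -1.19 ± 0.27 (0.99 ± 0.20, adjusted p = 0.035), or -0.70 with TLR3-KO control 4 as the only TLR3-KO control.

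In a further set the TLR3-KO response, a part of the contrast that the genes were picked on, also passed the test. N4bp2l1 (chromosome 5, 150571644 to 150597188) had 29.7, 35.1, 41.9 and 41.5 CPM in WT controls and 42.9, 38.4, 37.8 and 41.3 CPM in WT injured libraries, which overlapped. It had 39.5, 46.3, 53.2 and 57.8 CPM in the TLR3-KO controls and 32.9, 32.8, 29.8 and 34.8 CPM in TLR3-KO injured libraries, which did not. It fell by 0.65 ± 0.11 on the log2 scale in TLR3-KO (adjusted p = 0.0251 in edgeR), with an interaction of -0.66 ± 0.15. Usf2, a transcription factor that binds E-box sequences, fell by 0.65 ± 0.12 in TLR3-KO (adjusted p = 0.0366; interaction -0.76 ± 0.17). Spef1, a protein of motile cilia, fell by 1.16 ± 0.22 (adjusted p = 0.0366; interaction -1.37 ± 0.31). The other negative genes of lowest p were Hsd17b11 (-1.02 ± 0.23), Trim41 (-1.18 ± 0.28), Kcnip4 (-1.45 ± 0.35), AI504432 (-1.09 ± 0.26) and Inf2 (-1.41 ± 0.34), a formin that assembles actin.

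On the positive side Calcrl (chromosome 2, 84330626 to 84425411), the receptor for calcitonin gene related peptide and adrenomedullin, had 45.2, 42.2, 55.3 and 41.2 CPM in WT controls and 27.0, 38.4, 40.6 and 36.9 CPM in WT injured libraries. TLR3-KO had the opposite order, with 23.3, 33.4, 26.1 and 26.8 CPM in controls and 39.3, 43.6, 43.9 and 34.2 CPM after pneumonia. Neither genotype's groups overlapped on CPM from raw library totals. On TMM-scaled CPM the TLR3-KO groups did overlap, as TLR3-KO control 2 (TMM factor 0.983) then lay above TLR3-KO injured 4 (1.05). Its interaction was 0.97 ± 0.21, or 1.11 with TLR3-KO control 4 as the only TLR3-KO control, and it was lower in TLR3-KO than in WT controls (-0.82 ± 0.15, adjusted p = 0.0235 in edgeR).

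Fbxo21, a subunit of a ubiquitin ligase, was counted at 5.59 to 6.84 CPM in WT controls and 6.22 to 7.20 CPM in WT injured libraries, but at 4.55 to 5.95 CPM in the TLR3-KO controls and 8.99 to 11.6 CPM in TLR3-KO injured libraries. It rose in TLR3-KO (0.88 ± 0.15, adjusted p = 0.0251 in edgeR), with an interaction of 0.87 ± 0.21. Aqp9, a channel for water and glycerol, was the named gene of the positive set whose injured libraries lay above the controls in both genotypes. It was counted at 2.98 to 3.37 CPM in WT controls, 3.60 to 5.62 CPM in WT injured, 2.59 to 3.87 CPM in the TLR3-KO controls and 7.63 to 11.9 CPM in TLR3-KO injured libraries. Its interaction was 1.05 ± 0.26, and it rose in TLR3-KO (1.44 ± 0.19, adjusted p = 0.0107). Pomt1, which adds mannose to dystroglycan, rose in TLR3-KO (0.58 ± 0.11, adjusted p = 0.0366; interaction 0.62 ± 0.16). Asb7 (0.82 ± 0.19) and Gemin4 (0.66 ± 0.16), part of the complex that assembles splicing particles, completed the 12 positive genes.

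Injured and control libraries did not overlap in either genotype, with opposite directions, for 15 genes on the CPM scale. In 3 (0.025% of genes tested) TLR3-KO was higher and WT lower after pneumonia: Cldn18, Calcrl and Bzw1. In 12 (0.1%) it was the reverse: Gata3, Tspan4, Apoc1, Tmem149, Slc1a3, Hmga2, Zfp651, Ldb1, Kcnk3, Rras2, Fbxo44 and 5830415F09Rik. On TMM-scaled CPM, which correct for the composition of each library, the counts were 10 (0.0834%) and 5 (0.0417%), and 1 gene (0.00834%) and 4 genes (0.0334%) were in both sets, so membership depended on the scale. Slc1a3, a glutamate transporter, had the largest value, -3.21, at a highest group mean of 3.16 CPM. Gata3, a factor of T cells, had -2.68 at 0.600 CPM, and Apoc1, a lipoprotein gene next to Apoe, -2.54 at 2.91 CPM.

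**Figure D4:**
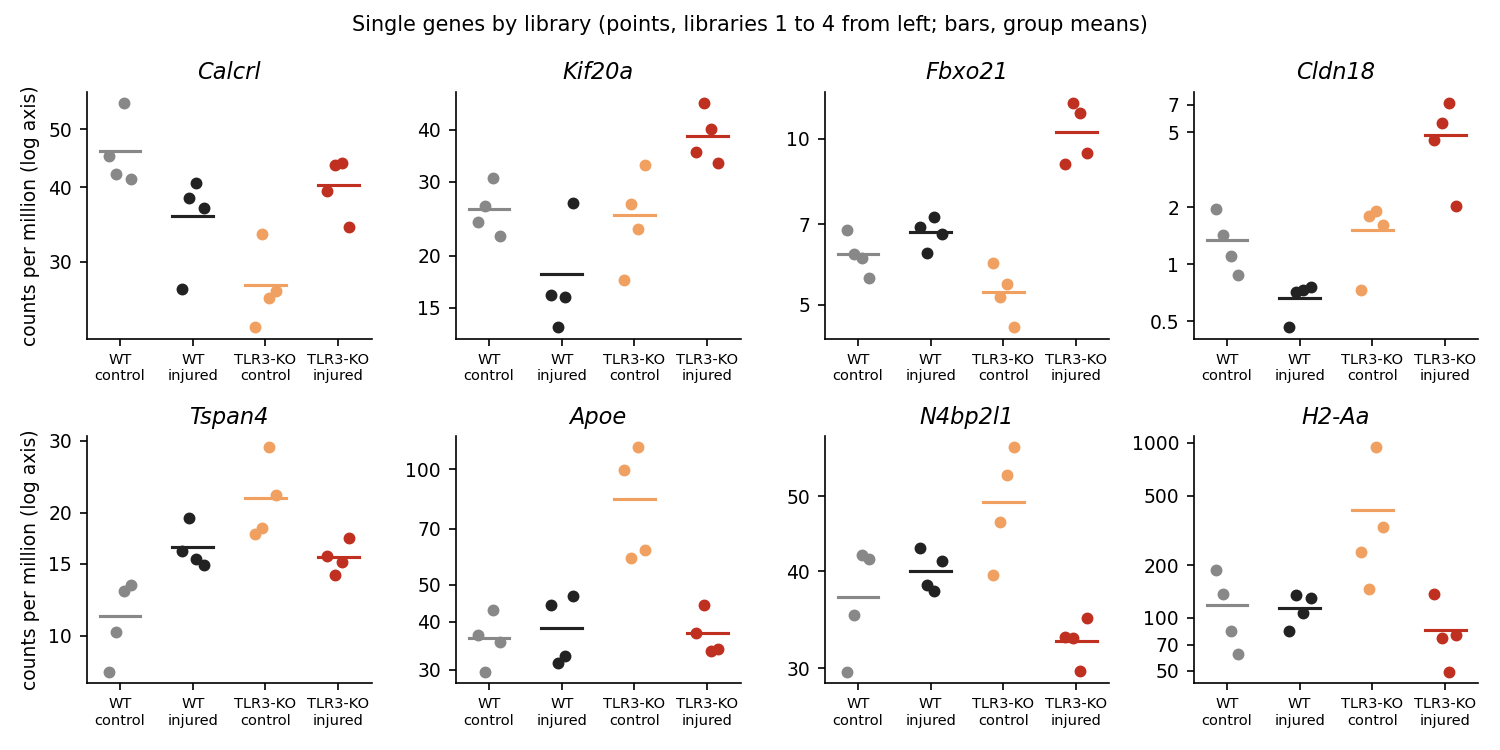
CPM (y axis, log scale, a different range in each panel) of 8 genes in the 4 groups (x axis; points, libraries 1 to 4 from left; bars, group means). Calcrl, Kif20a, Fbxo21 and Cldn18 have positive interactions (0.97, 1.20, 0.87 and 2.75) and Tspan4, Apoe, N4bp2l1 and H2-Aa negative ones (-1.01, -1.22, -0.66 and -2.13).

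Antigen presentation genes of MHC class II had a negative interaction in 16 of 16 measured members (52.9% of all genes), 5 with an unadjusted p under 0.05 (9.12% of all genes), and a median of -0.44. H2-Aa (chromosome 17, 34282744 to 34287823), a class II chain, had 238, 146, 942 and 329 CPM in the TLR3-KO controls and 136, 76.6, 49.3 and 79.4 CPM in TLR3-KO injured libraries. WT values were 188, 137, 84.3 and 61.9 CPM in controls and 84.1, 135, 107 and 129 CPM after pneumonia. TLR3-KO control 3 was far above the rest. H2-Aa fell in TLR3-KO (-2.32 ± 0.51, adjusted p = 0.0425 in edgeR), as did H2-Eb1 (-2.31 ± 0.50, adjusted p = 0.0425), with interactions of -2.13 ± 0.70 and -2.06 ± 0.68. With each library left out these interactions ran from -2.48 to -1.33 and from -2.43 to -1.24. H2-DMb1, which helps to load peptides, had -1.02 ± 0.34 (-0.54 with TLR3-KO control 4 as the only TLR3-KO control), and Ciita, the master regulator of the class, -0.31 ± 0.77. With TLR3-KO control 4 as the only TLR3-KO control the list median was -0.20 and 5 members were positive.

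Lymphocyte and dendritic cell markers also varied among the TLR3-KO controls. Class II scores were 0.62, 0.10, 0.78 and 0.44 in these 4 libraries, and B cell scores 1.11, 0.03, -1.01 and 2.38. All 19 measured T cell markers had a negative interaction, 3 with an unadjusted p under 0.05 (9.12% of all genes), and a median of -1.53. Their score was 1.52 and 1.64 in TLR3-KO controls 3 and 4 and -0.63 and -0.96 in TLR3-KO controls 1 and 2. Lck, a kinase of the T cell receptor, had 0.711, 0.316, 2.53 and 3.63 CPM in the TLR3-KO controls and 0.206 to 1.88 CPM in all others. The median was -0.62 with controls 1 and 2 only, -2.66 with TLR3-KO control 4 as the only TLR3-KO control and -2.42 without WT control 4. The summed level was 193 to 367 CPM in WT controls, 231 to 380 in WT injured, 266 to 471 in TLR3-KO controls and 212 to 273 CPM in TLR3-KO injured libraries, and Cd2 made up most of it. Cd2 ranged from 184 to 442 CPM across libraries and Cd3e from 0 to 1.48 CPM, so the sum mainly follows Cd2 and is no measure of T cells. Of 22 T cell markers in the table, 7 were at 0 in at least 1 library. All 8 natural killer cell markers measured were negative as well (median -1.56, -0.24 without TLR3-KO control 4, -2.98 without WT control 4 and -2.43 with TLR3-KO control 4 as the only TLR3-KO control), with Klrd1 at -1.83 ± 0.65. For B cell markers, 9 of 10 were negative (median -0.70), none at an unadjusted p under 0.05 (9.12% of all genes). That median rested on single libraries: it was 0.59 without WT injured 4 and 0.27 without TLR3-KO control 4, -0.45 to -0.29 without WT control 1, 2 or 3, -1.05 to -1.10 without WT injured 1 or 3, TLR3-KO control 3 or TLR3-KO injured 2, and -2.83 without WT control 4. It was -2.13 with TLR3-KO control 4 as the only TLR3-KO control. Dendritic cell scores in the TLR3-KO controls were 0.48, 0.16, 0.35 and 0.35. The part of lymphocyte or dendritic cell RNA in the class II values was not tested.

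Haemoglobin and other red cell genes had the lowest median, -2.74 over 6 measured members, all negative and 4 with an unadjusted p under 0.05 (9.12% of all genes). Beta-s (chromosome 7, 103826534 to 103828096), a beta globin gene, had 67.9, 8.43, 49.0 and 106 CPM in WT controls and 402, 255, 571 and 328 CPM in WT injured libraries. TLR3-KO held 98.1, 33.1, 48.0 and 392 CPM in controls and 58.3, 58.0, 108 and 154 CPM after pneumonia. WT injured libraries were all above WT controls, and TLR3-KO control 4 was as high as they were. Its interaction was -3.28 ± 0.99, and -4.68 with TLR3-KO control 4 as the only TLR3-KO control. Without that library the list median was -1.42, and with it as the only TLR3-KO control -4.19. Globin genes are near-identical copies, so the share of each is uncertain.

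Few of the genes downstream of TLR3 had a low interaction p. Of 36 type I interferon-stimulated genes, 24 had a positive interaction (47.1% of all genes), 2 with an unadjusted p under 0.05 (8.52% of all genes), and the median was 0.33, from 0.63 in WT and 0.89 in TLR3-KO. It was 0.15 without TLR3-KO injured 4 and 0.51 without WT control 3. Ifit2, an antiviral protein that binds RNA, had 2.77, 4.30, 0.566 and 2.88 CPM in WT controls and 2.48, 8.18, 9.98 and 7.98 CPM in WT injured libraries. TLR3-KO controls were low, at 0.877, 0.610, 0.864 and 1.08 CPM, and TLR3-KO injured libraries spread from 2.35 to 18.1 CPM. It rose in TLR3-KO (3.30 ± 0.66, adjusted p = 0.0376 in edgeR), with an interaction of 1.99 ± 0.87. Eif2ak2, the kinase PKR that senses double-stranded RNA, had 0.43 ± 0.18 (0.69 with TLR3-KO control 4 as the only TLR3-KO control), and Irf7 0.02 ± 0.65.

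Genes inducible by interferon gamma were positive in 16 of 25, against 47.1% of all genes. An unadjusted p under 0.05 was reached by 1 of them (8.52% of all genes). The median of the list was 0.24. That median was 0.06 without WT injured 1, 0.15 without TLR3-KO injured 4, 0.37 to 0.45 without WT injured 3, TLR3-KO control 2, 3 or 4 or TLR3-KO injured 2, and 0.54 with TLR3-KO control 4 as the only TLR3-KO control. Gbp6, a guanylate-binding protein that acts on pathogen vacuoles, was lower in TLR3-KO than in WT controls (-2.06 ± 0.45, adjusted p = 0.0476 in edgeR) and rose in TLR3-KO (1.99 ± 0.45, adjusted p = 0.0455), and its interaction was 1.10 ± 0.60. The related Gbp5 had 3.26 ± 1.31. Iigp1, an immunity GTPase, had -3.07 ± 1.79 at 0.485 CPM or less in each group mean. That was the lowest value of the list. The highest was 4.46, in a member that did not reach an unadjusted p under 0.05, and the 1 that did was Gbp5.

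Inflammatory cytokine and NF-kB genes were positive in 25 of 29, against 47.1% of all genes, with a median of 0.55. Of the positive ones, 2 had an unadjusted p under 0.05 (8.52% of all genes). Cxcl3, a chemokine that attracts neutrophils, had the lowest p of the list. It had 619, 462, 18.8 and 30.4 CPM in WT controls, 72.1, 161, 204 and 71.1 CPM in WT injured, 107, 33.9, 43.3 and 19.6 CPM in the TLR3-KO controls and 233, 72.7, 204 and 224 CPM in TLR3-KO injured libraries. WT controls 1 and 2 were far higher than WT controls 3 and 4. Its interaction was 3.08 ± 1.24. When just controls 3 and 4 were kept, the list median was -0.09 and 10 members were positive. It was 0.23 without WT control 1 and 1.06 with TLR3-KO control 4 as the only TLR3-KO control. Ptgs2, the inducible cyclooxygenase, had 2.15 ± 1.01, and -0.066 with those controls only. Tnfaip3, which restrains NF-kB, had 0.69 ± 0.42.

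Members of the TLR3 and TRIF signalling list were positive in 16 of 22, against 47.1% of all genes (median 0.19). At an unadjusted p under 0.05, 2 were positive and 1 negative (8.52% and 9.12% of all genes). The median was 0.11 without WT control 2 and 0.47 with TLR3-KO control 4 as the only TLR3-KO control. Traf6, a ubiquitin ligase that passes the signal to NF-kB, had 20.5, 30.0, 22.6 and 23.6 CPM in the TLR3-KO controls and 37.2, 42.8, 46.6 and 35.7 CPM after pneumonia, with no overlap, and 26.5 to 38.7 and 29.8 to 42.7 CPM in the WT groups. Its interaction was 0.69 ± 0.22. Ripk1, a kinase of the same branch, had 0.34 ± 0.15 and Irf3 -0.46 ± 0.21 (-0.73 with TLR3-KO control 4 as the only TLR3-KO control).

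Cholesterol synthesis genes had a median of -0.70 in the WT response and -0.42 in the TLR3-KO response. Their interaction was positive in 15 of 21, against 47.1% of all genes, with a median of 0.22. Of the positive ones, 6 had an unadjusted p under 0.05 (8.52% of all genes). Hmgcs1, the enzyme before the rate-limiting step, had 746, 703, 784 and 716 CPM in WT controls and 330, 559, 515 and 482 CPM in WT injured libraries. TLR3-KO controls held 414, 520, 480 and 616 CPM, already below WT controls, and TLR3-KO injured libraries 424, 484, 507 and 466 CPM. The interaction was 0.59 ± 0.19. Hsd17b7, a later enzyme, had 0.72 ± 0.20 and was lower in TLR3-KO than in WT controls (-0.69 ± 0.14, adjusted p = 0.0458 in edgeR). With TLR3-KO control 4 as the only TLR3-KO control the list median was 0.009, and it was 0.09, 0.35 and 0.34 without WT injured 1, WT injured 2 and TLR3-KO control 4.

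Genes of recruited monocytes and macrophages were negative in 20 of 27, against 52.9% of all genes, with a median of -0.51. Of the negative ones, 2 had an unadjusted p under 0.05 (9.12% of all genes). The median was -0.21 without TLR3-KO control 3 and -0.26 with TLR3-KO control 4 as the only TLR3-KO control. Apoe (chromosome 7, 19696109 to 19699188), which carries lipid out of macrophages, had 37.0, 29.7, 42.9 and 35.5 CPM in WT controls and 44.3, 31.2, 32.5 and 46.6 CPM in WT injured libraries. TLR3-KO controls held 99.6, 58.8, 114 and 61.8 CPM and TLR3-KO injured libraries 37.5, 44.3, 33.6 and 34.0 CPM. The TLR3-KO controls stood above all other libraries. Apoe was higher in TLR3-KO than in WT controls (1.14 ± 0.22, adjusted p = 0.0346 in edgeR) and fell in TLR3-KO (-1.24 ± 0.22, adjusted p = 0.0287). Its interaction was -1.22 ± 0.31, or -0.66 with TLR3-KO control 4 as the only TLR3-KO control. Trem2, a lipid receptor, had -0.56 ± 0.27.

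Alveolar macrophage identity genes were positive in 11 of 31 with a median of -0.08 (0.10 with TLR3-KO control 4 as the only TLR3-KO control, and -0.14 to 0.04 with each library left out, positive without WT injured 1 or TLR3-KO control 1), and 1, a negative one, had an unadjusted p under 0.05 (9.12% of all genes). That gene, Fabp4, a fatty acid binding protein, had -1.42 ± 0.42. It had 208, 203, 362 and 358 CPM in WT controls and 522, 446, 376 and 179 CPM in WT injured libraries, which overlapped, and 389, 322, 379 and 652 CPM in the TLR3-KO controls and 205, 175, 172 and 299 CPM in TLR3-KO injured libraries, which did not. Antioxidant genes were negative in 22 of 27, against 52.9% of all genes. Their median was -0.31, but 0.05 with controls 1 and 2 only and -0.09 without TLR3-KO control 3. The lowest p of that list belonged to Sod1, the cytosolic superoxide dismutase (-0.71 ± 0.21), and the lowest value to Mgst3 (-1.04 ± 0.36, or -0.51 with TLR3-KO control 4 as the only TLR3-KO control).

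For the unfolded protein response, 13 of 25 were positive, with 5 positive and 4 negative at an unadjusted p under 0.05 (8.52% and 9.12% of all genes). Fkbp11, a chaperone of the endoplasmic reticulum, fell in TLR3-KO (-1.25 ± 0.25, adjusted p = 0.0367 in edgeR; interaction -1.24 ± 0.34), as did Atf4, the stress transcription factor (-0.65 ± 0.15, adjusted p = 0.0483; interaction -0.63 ± 0.21). Lysosome genes were positive in 22 of 30, against 47.1% of all genes. Their median was 0.10, or 0.03 without TLR3-KO control 4 and 0.24 with it as the only TLR3-KO control. The lowest value was that of Cd63 (-0.97 ± 0.38) and the highest that of Ctsc, a protease (0.66 ± 0.31). Psap, the saposin precursor, had 0.66 ± 0.29, and 1.32 with TLR3-KO control 4 as the only TLR3-KO control.

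Of 17 neutrophil markers measured, 8 were positive, with a median of -0.01. The median ranged from -0.77 without WT control 4 to 0.23 without WT control 3, and was -1.07 with TLR3-KO control 4 as the only TLR3-KO control. The member with an unadjusted p under 0.05 (8.52% of all genes) was Fpr1, a receptor for bacterial formyl peptides, at 0.45 ± 0.18. Fpr1 was high without infection too, at 306 to 446 CPM in WT controls and 310 to 366 CPM in the TLR3-KO controls. Its WT response was -0.45 ± 0.13, where that of S100a8 was 2.39 ± 0.51. Which cells the Fpr1 RNA came from was not tested. S100a8, a subunit of the neutrophil protein calprotectin, ranged over 3.49 to 10.3 CPM in WT controls and 14.4 to 52.5 CPM in WT injured libraries, against 4.29 to 13.7 and 6.30 to 25.7 CPM in TLR3-KO. Its interaction was -1.40 ± 0.70, or -2.13 with TLR3-KO control 4 as the only TLR3-KO control. Dendritic cell markers were negative in 9 of 13 (median -0.48), but with TLR3-KO control 4 as the only TLR3-KO control 7 of 13 were positive (median 0.19). The median was -0.76, -0.31 and -0.30 without WT control 1, WT control 4 and WT injured 4. Clec9a, a receptor of cross-presenting dendritic cells, fell in TLR3-KO (-1.45 ± 0.30, adjusted p = 0.0376 in edgeR), with an interaction of -1.57 ± 0.42, while Fscn1, an actin bundler of mature dendritic cells, had 1.38 ± 0.62.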

How the data were processed

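RNA of 16 lavage macrophage libraries was sequenced as paired reads of 50 bases from TruSeq mRNA libraries, per the labels' protocols. Per the submitters' processing notes, FastQC 0.11.3, TopHat2 2.0.13, Bowtie2 2.2.1, Cufflinks and Cuffdiff 2.1.1 were used with mm10. The table deposited by the authors holds whole-number HTSeq counts per gene symbol without normalization. How strand was set and which annotation served are not given in the sources used here. Overlapping and multicopy genes are therefore uncertain. Columns were matched to the 4 groups by the titles. Of 23159 symbols, 22931 had a position, 20778 by a GENCODE symbol and the others through RefSeq. Of the 12455 genes tested, 389 on X or Y and 78 without a position are not reported.

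Genes were kept by filterByExpr (minimum count 10), scaled by TMM and fitted with 1 coefficient per group in edgeR 4.0.16 (R 4.3.3) by a robust quasi-likelihood model. Benjamini-Hochberg adjustment ran over all 12455 genes, with a threshold of 0.05. SE is the size of a log2 value over the square root of F. CPM values use raw library totals. No 2 libraries of a group were copies of each other. The code was tested on simulated data.

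Control numbers paired libraries between genotypes: departures from the group mean correlated at 0.478 to 0.602 for the same number, with the best match at the own number in 7 of 8 libraries. Injured numbers did not (-0.341 to 0.077, 0 of 8), nor did control and injured numbers in WT (-0.294 to -0.121, 0 of 8). Between TLR3-KO control and injured libraries 6 of 8 matched best at the own number, but correlations ran from -0.068 to 0.341 and not every pair was over 0.1, so a block for control numbers was used beside the unblocked model.

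The comparison, the 30 gene lists and the rule for naming genes were chosen with earlier results of these data known. The rule takes, per direction, the 12 genes of lowest p reaching 5 CPM on average in some group, and, for lists described in detail, the 3 members of lowest p with at least 1 CPM. Other members were named after their values were seen. Lists have counts and medians and no test. Alternatives were RLE size factors, other filters, DESeq2 1.42.0, limma 3.58.1 (voom), blocks, a covariate for female RNA, subsets of controls and each library left out. Added after seeing the data were a model without robust fitting and the blocked model with other settings. Python 3.11.15, pandas 2.3.3, numpy 2.4.6 and matplotlib 3.10.9 made the tables and figures.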

Additional observations from a re-analysis of the deposited data

Results flagged for a closer look

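In each group of 4 libraries, a library whose gap to its nearest neighbour was over 0.829 of the group's range was picked out for each named gene. This gave 16 of 320 groups tested, and chance gives about 1 in 20 groups. In WT controls these were Gm11545 in library 2 (4.45 CPM), Mgst3 and Ear1 in library 3 (60.6 and 411 CPM), and Ccnb1 and Il2rb in library 4 (33.7 and 2.82 CPM). In WT injured libraries they were Cldn18 in library 1 (0.466 CPM) and Fscn1 in library 4 (2.70 CPM). TLR3-KO controls had Trim41 and Cox6c in library 2 (4.42 and 64.3 CPM), Kcnip4 in library 3 (10.98 CPM), and Retnlg and Sftpb in library 4 (2.16 and 1.45 CPM). In TLR3-KO injured libraries they were Cyp51 in library 1 (405 CPM), Klrk1 in library 3 (0.640 CPM), and Cox6c and Il2rb in library 4 (80.0 and 1.21 CPM).

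Xist, which lies on the X chromosome outside the genes compared, reached 42.3, 31.6 and 20.3 CPM in libraries 1, 2 and 3 of the TLR3-KO controls, above the level in WT controls.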

How the results depend on the processing

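The count of genes called stayed at 0 under RLE size factors, both other filters, equal-weight voom, fitting without the robust option, the female RNA covariate, the block on all replicate numbers, TLR3-KO control 4 as the only TLR3-KO control, controls 3 and 4 only, and adjustment over the reported genes only. Leaving out each library in turn also gave 0 every time. It was 342 with the replicate block among the controls, 91 in DESeq2, 52 with controls 1 and 2 only and 4881 in voom with library quality weights. The blocked count was 426 with RLE size factors, 488 with at least 5 CPM in 4 libraries, and 0 to 2750 with each library left out: 142, 68 and 2750 without WT injured 1, 3 and 4, 21 without WT control 4, 5 and 1345 without TLR3-KO control 4 and injured 4, and 0 without any other. Genes with an unadjusted p under 0.05 numbered 3707 with the replicate block among the controls, 6078 with quality weights and 1358 to 3149 with each library left out. The lowest came without TLR3-KO injured 3 (1358) or 2 (1409), WT control 1 (1359) or WT injured 1 (1371). The cause of these shifts was not tested. Over 80 named genes, 10 of 2223 values changed sign, in 2 genes; fitting without the robust option and further changes to the blocked model were not in that count. Ptgs2 had -0.066 with controls 3 and 4 only. Tlr3, near 0 throughout, had 0.26 with the female RNA covariate, 0.32 with TLR3-KO control 4 only, 0.19 with controls 3 and 4 only, and -0.28 to 0.126 with each library left out. Of 580 list medians, 33 moved by more than the spread between libraries.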

Other observations

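The remaining lists are given by their counts and medians, beside -0.03 over all genes. MHC class I and immunoproteasome genes were positive in 6 of 17 (median -0.15), circadian clock genes in 4 of 15 (-0.22), immediate early genes in 14 of 25 (0.02), heat shock chaperones in 10 of 14 (0.07), cytokine signalling suppressors in 7 of 11 (0.03) and glycolysis genes in 13 of 18 (0.11). Macrophage markers were positive in 10 of 13 (0.29). Endothelial and fibroblast markers were positive in 2 of 5 (-0.01), and both measured eosinophil and mast cell markers were negative (-0.87). With TLR3-KO control 4 as the only TLR3-KO control these medians were -0.04, -0.09, 0.45, 0.24, 0.26, 0.46, 0.42, -0.36 and -1.62, in the same order. With each library left out they changed sign for the immediate early, suppressor, endothelial and fibroblast, and eosinophil and mast cell lists.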
